A study of Mus musculus with 257 samples.

Results

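The comparison set female mouse cerebella with 2 floxed copies of Ddx3x (labelled BD-FL-FL, here FL/FL) against female cerebella with 1 floxed and 1 intact copy (labelled BD-FLPlus, here FLPlus). All animals were at postnatal day 5 (P5). Libraries were chosen by their genotype and age labels, 5 per genotype, 10 of the 257 in the series. Both genotypes carry Blbp-Cre, a recombinase driven by the promoter of the radial glial gene Blbp (Fabp7), so they differ in how many Ddx3x copies can be deleted. Neither carries the Ctnnb1 and Pik3ca alleles of the Wnt model or the Ptch1 allele of the Shh model. Males with 1 floxed copy (BD-FLY, here FLY) and WT cerebella of the same age, 5 each, gave the spread in the same model. The WT labels name no Cre. Tissue was the whole cerebellum, so floxed cells were measured together with cells that had never been exposed to the recombinase. The labels do not say whether libraries of 1 genotype came from separate litters, so the p-values speak only of the spread among these samples.

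DDX3X is an RNA helicase that unwinds structured messenger RNA leaders during the start of translation, and it takes part in innate immune signalling. At P5 the cerebellum holds dividing granule neuron progenitors, maturing Purkinje cells, Bergmann glia and other astroglia, early oligodendrocytes and microglia, and it is wrapped in meninges. Blbp-Cre acts in radial glia, from which neurons and macroglia arise, whereas microglia come from the yolk sac. p53, a transcription factor switched on by DNA damage and other stress, induces genes for cell cycle arrest, death receptors and repair.

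Across 18960 tested genes, 200 rose in FL/FL and 49 fell at an adjusted p below 0.05 (edgeR quasi-likelihood test, Benjamini-Hochberg adjustment). The rises made up 1.05% of genes tested and the falls 0.258%. Genes that rose included p53 targets, complement and other microglial genes, collagens and small proteoglycans of the meninges, and feedback genes of FGF signalling. Those that fell included Aqp4, Emp2, Ndrg2 and the desaturases Scd1 and Scd2. The groups did not overlap for 309 genes higher in FL/FL (1.63%) and 91 lower (0.48%). At an unadjusted p below 0.05 there were 1812 genes. The number of calls changed with the libraries in the fit. With the 10 FL/FL and FLPlus libraries alone, 48 genes were called, all 48 of them among the 249. The count was 111 without FL/FL replicate 4, 142 without FL/FL replicate 2, 148 without FLPlus replicate 5 and 381 without FL/FL replicate 1.

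Ddx3x itself (ENSMUSG00000000787, chromosome X, 13280970 to 13294052, GRCm38) did not differ detectably between the groups. Its level was 296, 322, 383, 315 and 338 CPM (counts scaled to a common library total) in FL/FL replicates 1 to 5, and 405, 305, 350, 323 and 354 in FLPlus replicates 1 to 5. The ranges overlapped, and the log2 fold change was -0.12 ± 0.12 (standard error, adjusted p = 0.842). WT cerebella held 466 CPM and FLY cerebella, all male, 247 on average. The WT mean mixes sexes by Xist. Female WT replicates 1, 3 and 5 held 568, 558 and 447 CPM, and male replicates 2 and 4 held 337 and 422. All 10 FL/FL and FLPlus libraries lay below each female WT library. One count per gene was deposited, so reads of the floxed part cannot be set apart from the rest. All 10 libraries had a female profile, with Xist at 1083 to 2678 CPM and Y-linked genes summing to at most 0.692 CPM. Fabp7, whose promoter drives the recombinase, held 411 ± 76.4 CPM in FL/FL and 522 ± 78.3 in FLPlus (SD, n = 5 each), and its log2 fold change of -0.39 was not called (adjusted p = 0.165).

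Totals were 15446618 to 23049088 counts per library, and mitochondrial genes held 0.906% to 3.33% of counts. Makeup differed within the groups. Summed over the list of 28 proliferation genes, the level was 433 CPM in FL/FL replicate 1 and 1304 to 1875 in the other FL/FL libraries, and 2899, 298, 1578, 697 and 505 in FLPlus replicates 1 to 5. The 12 choroid plexus genes, from the epithelium that makes cerebrospinal fluid, summed to 155 CPM in FL/FL replicate 1 and to 2625 to 3485 in the other FL/FL libraries. In FLPlus they summed to 2461 in replicate 4, 1437 in replicate 1 and 130 to 177 in the rest. Both lists had 0 genes called by edgeR, 0 by DESeq2 and 0 at an unadjusted p below 0.05, at median log2 fold changes of 0.03 and 1.23 (-0.18 to 0.65 and 0.99 to 2.01 without a library). Markers of the labelled tissue were present in all 10 libraries, with granule neuron genes summing to 3483 to 4643 CPM and Purkinje genes to 960.7 to 3036. Hox genes, which mark hindbrain behind the cerebellum, summed to 0.2998 to 197 CPM in FL/FL and 0.2985 to 65.7 in FLPlus, with 0 of 12 called by edgeR, 0 by DESeq2 and 0 at an unadjusted p below 0.05. Of the genes that rose, 151 of 200 had their lowest FL/FL level in replicate 1. With the choroid plexus level as a term, 220 genes were called, 172 of them among the 249, and with the proliferation level as a term 562 were called, all 249 among them. With FL/FL replicate 1 and FLPlus replicate 2 left out together, 238 were called, 196 of them shared.

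**Figure D1:**
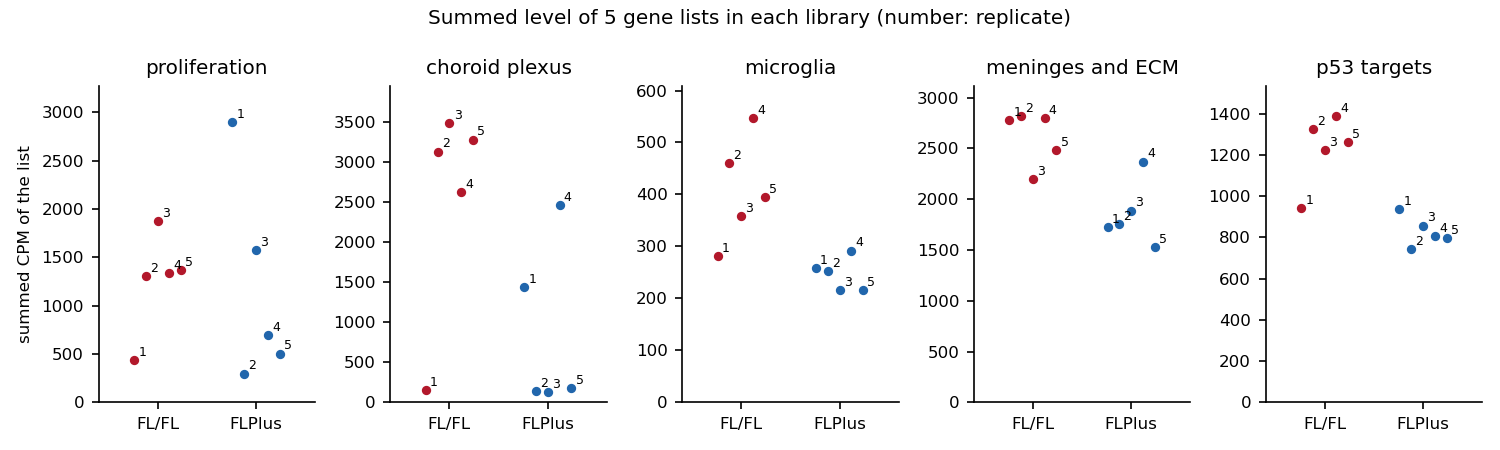
Summed level (CPM, linear axis from 0) of 5 gene lists in each FL/FL (red) and FLPlus (blue) library, numbered by replicate. FL/FL replicate 1 lies lowest of its group for proliferation, choroid plexus, microglia and p53 targets, and the choroid plexus lists of the groups overlap.

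Promoters were read to show the sequence at some of the genes that moved. Sequences come from RefSeq (GRCm38.p6), from 250 bases before to 50 after a start site, and 5 motifs were searched on both strands. A full p53 response element, a pair of half-sites with a spacer of 0 or 1 base and at most 1 mismatch outside the fixed core, was found in 3 of the 22 p53 targets with an entry. They were Ccng1, Cdkn1a and Gtse1. The same search found it in 0.13% of the 27025 genes with a promoter entry and in 0.0886% of the 12413 tested genes with one. Of these 3 genes only Ccng1 was called in FL/FL against FLPlus. Its promoter (chr11:40755237-40755536, minus strand) is given with the element in capitals, followed by the elements alone of Cdkn1a (chr17:29090928-29090947) and Gtse1 (chr15:85859945-85859964, the first of 2 matches), both on the plus strand.
Ccng1: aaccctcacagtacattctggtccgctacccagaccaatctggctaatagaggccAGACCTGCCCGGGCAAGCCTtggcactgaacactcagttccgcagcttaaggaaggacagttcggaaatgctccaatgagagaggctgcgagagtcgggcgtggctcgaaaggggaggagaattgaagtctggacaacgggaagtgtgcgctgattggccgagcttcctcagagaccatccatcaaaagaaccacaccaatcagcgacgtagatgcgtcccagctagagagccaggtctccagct
Cdkn1a: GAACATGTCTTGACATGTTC
Gtse1: GAGCAAGTTGGGGCTTGCCT

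Other promoters were chosen for the groups that are described next. GAGGAAGT, a form of the motif bound by PU.1, a factor of microglia, was present in 9 of 155 promoters of genes that rose (5.81%). It was present in 3.69% of all genes with an entry and in 3.34% of tested genes with an entry. C1qc, which encodes a chain of complement C1q, carries it in the reverse direction (capitals, chr4:136892865-136893164, minus strand). TGANTCA, the motif of AP-1, was present in 16 of the 155 (10.3%), in 8.97% of all and in 6.15% of tested genes. The promoter of Gpnmb, a gene of phagocytic cells that rose, holds it just after the start site (capitals, chr6:49036268-49036567, plus strand). CCAAT, bound by NF-Y, was present in all 12 cholesterol synthesis genes with an entry and in 36 of the 155 promoters of genes that rose (23.2%). It was present in 16 of 34 of genes that fell (47.1%), in 41.1% of all and in 42.4% of tested genes. Cyp51, the called gene of that pathway, is shown (capitals, chr5:4104648-4104947, minus strand). CCGGAAGT, another ETS factor motif, was present in 1 of the 155, in 0 of 14 FGF feedback genes, in 4.31% of all and in 7.81% of tested genes. A match is a description of the letters only.
C1qc: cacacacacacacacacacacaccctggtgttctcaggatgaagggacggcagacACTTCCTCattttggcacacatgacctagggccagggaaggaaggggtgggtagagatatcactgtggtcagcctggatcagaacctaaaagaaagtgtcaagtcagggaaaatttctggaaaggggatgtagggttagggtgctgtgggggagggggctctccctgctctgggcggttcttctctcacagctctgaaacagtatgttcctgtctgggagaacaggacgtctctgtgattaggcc
Gpnmb: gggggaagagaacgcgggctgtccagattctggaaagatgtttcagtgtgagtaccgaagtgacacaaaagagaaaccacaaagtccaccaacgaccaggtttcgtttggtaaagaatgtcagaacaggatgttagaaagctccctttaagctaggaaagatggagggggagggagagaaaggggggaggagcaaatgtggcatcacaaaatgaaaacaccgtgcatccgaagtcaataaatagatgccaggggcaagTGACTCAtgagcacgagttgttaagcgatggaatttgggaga
Cyp51: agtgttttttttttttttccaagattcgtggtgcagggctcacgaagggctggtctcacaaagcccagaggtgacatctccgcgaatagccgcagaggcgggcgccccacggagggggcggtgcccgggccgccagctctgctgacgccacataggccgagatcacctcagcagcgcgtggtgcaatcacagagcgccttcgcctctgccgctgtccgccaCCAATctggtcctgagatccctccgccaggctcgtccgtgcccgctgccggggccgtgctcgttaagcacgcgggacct

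Among p53 targets, 9 of the 29 tested rose in FL/FL and none fell, with 28 of 29 fold changes positive and a median of 0.44 against -0.01 over all genes. Tnfrsf10b (ENSMUSG00000022074, chromosome 14, 69767472 to 69784411), the death receptor for TRAIL, had the smallest adjusted p of the list. It held 4.15, 10.7, 6.93, 10.6 and 9.41 CPM in FL/FL replicates 1 to 5, and 1.20, 0.883, 0.945, 1.43 and 1.15 in FLPlus. Every FL/FL library lay above every FLPlus library, and the log2 fold change was 2.83 ± 0.25 (adjusted p = 1.18e-05). Ccng1, which encodes cyclin G1, held 102, 157, 121, 210 and 162 CPM in FL/FL and 58.2, 50, 41.5, 62.4 and 49.2 in FLPlus. Here too the groups did not overlap (1.47 ± 0.17, adjusted p = 0.000171). Ddit4l, an inhibitor of mTOR signalling, rose by 1.97 ± 0.23 (adjusted p = 0.000171), from 2.65 ± 0.936 CPM to 10.8 ± 2.83.

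Fas, the other death receptor on the list, held 0.999 to 3.06 CPM in FL/FL and 0.0995 to 0.846 in FLPlus (2.25 ± 0.45, adjusted p = 0.0124). Ephx1, an epoxide hydrolase of detoxification, rose by 1.42 ± 0.25, Sesn2, a stress-induced regulator of mTOR, by 0.67 ± 0.14, and Aen, an exonuclease of apoptosis, by 0.44 ± 0.08. Dcxr, a carbonyl reductase, rose by 1.24 ± 0.25 and Pmaip1, the death-inducing NOXA, by 1.87 ± 0.44, with overlapping groups for both. Several classical targets were not called: Cdkn1a, the cell cycle inhibitor p21, stood at 0.52 (adjusted p = 0.263), Mdm2, the ligase that degrades p53, at 0.32 (0.229), and Bax at 0.20 (0.651). The apoptosis machinery (caspases and BCL2 family) had 0 of 19 called by edgeR, 0 by DESeq2 and 0 at an unadjusted p below 0.05, with a median of -0.03. With the 10 libraries alone, Tnfrsf10b, Ddit4l, Ccng1 and Ephx1 kept their calls. Pmaip1 lost its call in 8 of the 10 fits that left out a library, Sesn2 in 4 and Dcxr in 1, and with the choroid plexus level as a term Pmaip1 and Dcxr were at adjusted p = 0.161 and 0.0645. With the proliferation level as a term 15 of the 29 targets were called, Cdkn1a (0.66, adjusted p = 0.00838) and Phlda3 (0.88, adjusted p = 0.0179) among them.

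**Figure D2:**
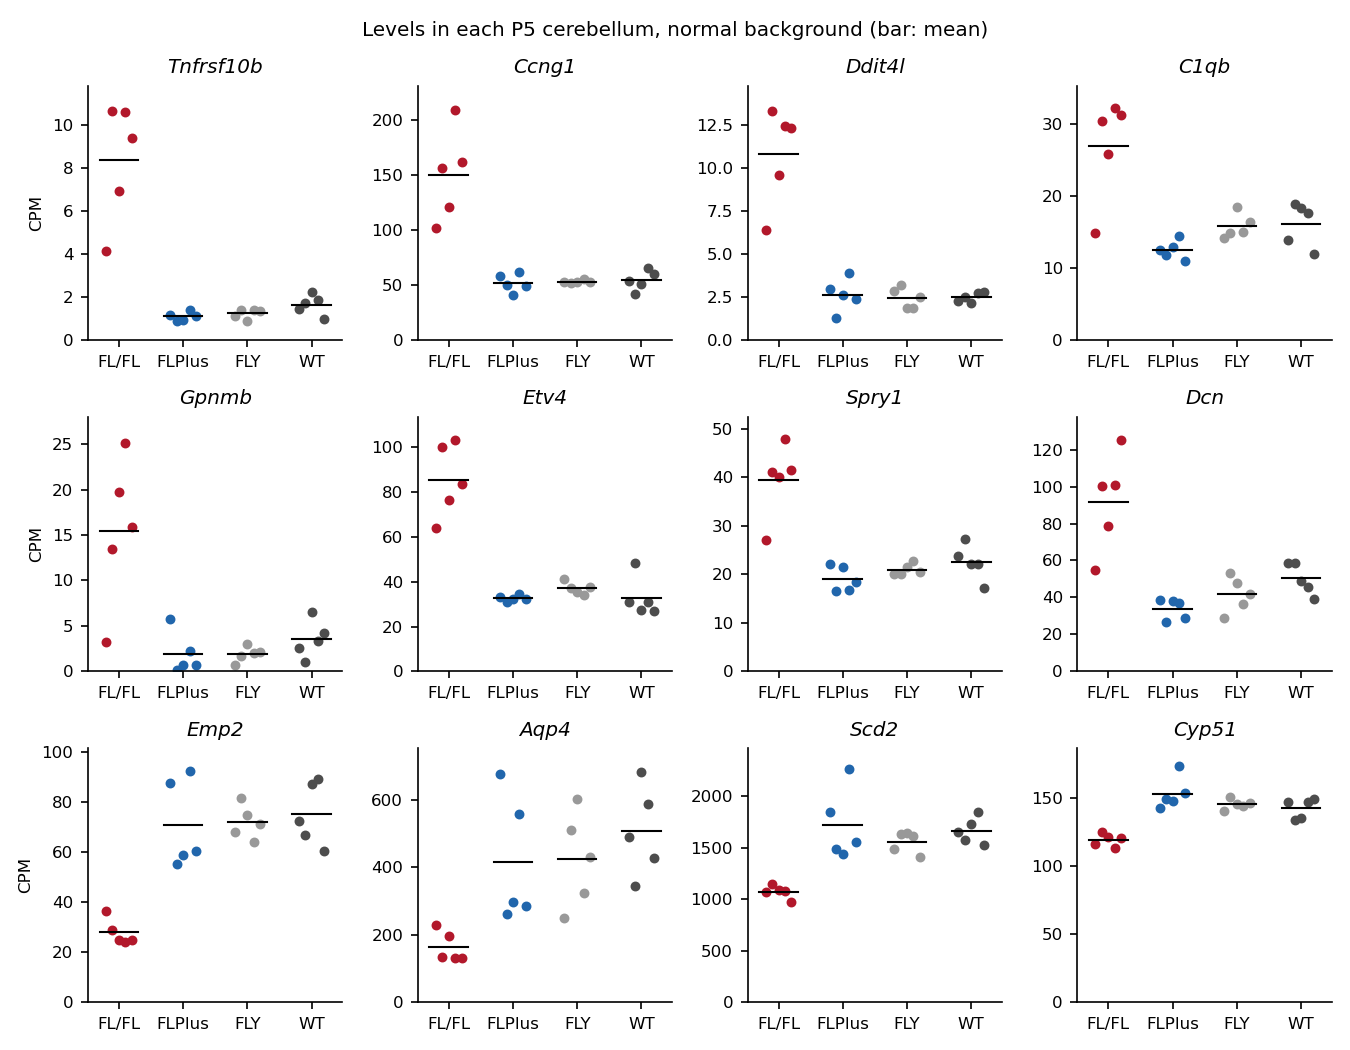
CPM (linear axes from 0) of 12 genes in each P5 cerebellum of the 4 normal-background genotypes, with the mean as a bar. FL/FL libraries (red) lie apart from FLPlus (blue) for every gene but Gpnmb, where FL/FL replicate 1 at 3.25 CPM lies below FLPlus replicate 1 at 5.72.

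Microglial genes formed a second group of rises. Of the 16 markers tested, 7 rose, none fell and all 16 had positive fold changes, with a median of 0.74. Summed over the list, the level was 282.1 to 547 CPM in FL/FL and 215.3 to 292.0 in FLPlus, and only FL/FL replicate 1 lay within the FLPlus range. Among those called were the 3 chains of complement C1q (C1qa, C1qb and C1qc), the protease gene Ctss, and the receptors Fcrls and Trem2. C1qb held 14.9, 30.5, 25.8, 32.3 and 31.3 CPM in FL/FL replicates 1 to 5 and 12.6, 11.9, 13, 14.5 and 11.1 in FLPlus. FL/FL replicate 1 lay just above the highest FLPlus library and the other 4 FL/FL libraries well above it (1.03 ± 0.16, adjusted p = 0.00188). C1qa rose by 0.82 ± 0.15 and C1qc by 0.88 ± 0.14, with groups that did not overlap, although FL/FL replicate 1 and FLPlus replicate 1 both held 14.8 CPM of C1qa after rounding. Markers of resting microglia were not called: P2ry12 stood at 0.13 (adjusted p = 0.913), Tmem119 at 0.35 (0.686), Cx3cr1 at 0.57 (0.25) and Aif1 at 0.22 (0.945). In whole tissue, more or fewer cells of a type and more or less RNA per cell cannot be told apart.

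Of 16 genes of activated microglia, 3 rose. Summed over the list, the groups overlapped, at 1353 to 1871 CPM in FL/FL and 1369 to 2140 in FLPlus. Gpnmb, a glycoprotein of phagocytic cells (ENSMUSG00000029816, chromosome 6, 49036546 to 49070929), held 3.25, 13.5, 19.7, 25.1 and 15.8 CPM in FL/FL and 5.72, 0.189, 0.746, 2.22 and 0.73 in FLPlus. Both groups spread widely and overlapped in the 2 libraries labelled replicate 1 (2.94 ± 0.65, adjusted p = 0.0262). Lyz2, lysozyme, rose by 1.22 ± 0.19 and Lpl, lipoprotein lipase, by 1.01 ± 0.23. Spp1, at 1.54, Itgax, at 1.67, and Ccl3, at 1.47, were not called (adjusted p = 0.186, 0.188 and 0.134). Genes outside the lists that act on or in phagocytes also rose, chosen after their values were seen. Csf1, a growth factor of microglia, held 29.6 to 43.7 CPM in FL/FL and 15.6 to 28 in FLPlus (0.73 ± 0.10, adjusted p = 0.00102). Mertk, a receptor for the uptake of dying cells, rose by 0.80 ± 0.13 (adjusted p = 0.00214), and Csf3r, a receptor of granulocytes, by 1.45 ± 0.26.

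The microglial calls were sensitive to single libraries. Of the 16 markers, 3 were called without FL/FL replicate 2, FL/FL replicate 4, or FLPlus replicate 2, 3 or 5, and 4 without FL/FL replicate 5. C1qb alone kept its call with the 10 libraries, and 4 of the 16 markers were called with the choroid plexus level as a term. Of the 16 activated genes, 1 was called without FL/FL replicate 2, 3, 4 or 5 or FLPlus replicate 2, 3 or 5, 2 without FLPlus replicate 4 and 6 without FLPlus replicate 1. With the choroid plexus level as a term Gpnmb and Lpl were at adjusted p = 0.064 and 0.0727, and with the proliferation level as a term 6 of the 16 activated genes were called. Interferon response genes had 0 of 21 called by edgeR, 1 by DESeq2 and 6 at an unadjusted p below 0.05, while 20 of 21 fold changes were positive (median 0.39). The inflammasome list had 0 of 12 called by edgeR, 1 by DESeq2 and 3 at an unadjusted p below 0.05. Nlrp3, a sensor of the inflammasome, was at 1.33 (adjusted p = 0.065).

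Collagens and matrix genes of the meninges rose together by count: 7 of 18 rose and none fell, with a median of 0.52. Dcn, the small proteoglycan decorin (chromosome 10, 97479609 to 97518143), held 54.6, 100, 78.7, 101 and 125 CPM in FL/FL and 38.8, 26.6, 38, 37.1 and 29 in FLPlus. The lowest FL/FL library was above the highest FLPlus library (1.38 ± 0.17, adjusted p = 0.000193). Col3a1, a fibrillar collagen, held 277 to 483 CPM in FL/FL and 122 to 206 in FLPlus (1.02 ± 0.17, adjusted p = 0.0041). Col6a1 rose by 0.70 ± 0.12, Col5a1 by 0.98 ± 0.18, Postn (periostin) by 0.81 ± 0.16, Lum (lumican) by 1.42 ± 0.32 and Foxc1, a transcription factor of the meninges, by 0.63 ± 0.15. Col1a1 and Col1a2, the chains of the most abundant fibrillar collagen, were at 0.45 and 0.42 (adjusted p = 0.777 and 0.628). Outside the list, Col5a3 rose by 1.61 ± 0.28 and Tgfbi, a matrix protein induced by TGF-beta, by 1.63 ± 0.37.

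Summed over the list, meningeal genes held 2198 to 2819 CPM in FL/FL and 1525 to 2371 in FLPlus. WT libraries held 2098 to 2516 CPM, overlapping FL/FL, and FLY libraries 1689 to 2305. Blood genes, which come with vessels and membranes, summed to 135 to 311.5 CPM in FL/FL and 92.2 to 296 in FLPlus, with 0 of 6 called by edgeR, 0 by DESeq2 and 1 at an unadjusted p below 0.05. All 6 blood genes tested had positive fold changes, at a median of 0.69 beside 0.52 for the matrix list. Vascular genes had 0 of 16 called by edgeR, 0 by DESeq2 and 3 at an unadjusted p below 0.05, with 13 of 16 positive at a median of 0.20. The part of vessels and membranes in the matrix genes was not tested. With the choroid plexus level as a term 7 of the 18 were called, without FL/FL replicate 4 it was 4, and with the 10 libraries alone only Dcn was. Foxc1 lost its call in 8 of the 10 fits without a library, Lum and Tgfbi in 6 and Postn in 1.

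Genes that FGF and ERK signalling switch on as feedback formed another group, with 4 of 20 called higher and a median of 0.32. Etv4, an ETS transcription factor at the end of that pathway (chromosome 11, 101769742 to 101785371), held 64.1, 100, 76.5, 103 and 83.5 CPM in FL/FL against 33.2, 31.2, 32.5, 34.7 and 32.3 in FLPlus. FLPlus libraries were almost level with each other, and the rise was 1.33 ± 0.14 (adjusted p = 6.42e-05). Spry1, an inhibitor of receptor tyrosine kinase signalling, held 27.2 to 47.9 CPM in FL/FL and 16.7 to 22.1 in FLPlus (1.00 ± 0.12, adjusted p = 0.000171). Dusp6, a phosphatase of ERK, rose by 0.83 ± 0.18 with overlapping groups. Fgf15, a ligand, held 0.899 CPM in FL/FL replicate 1, 9.23 to 18.3 in the others and 0.521 to 5.87 in FLPlus (2.27 ± 0.54, adjusted p = 0.0406). The receptors were not called, with Fgfr1 at 0.02, Fgfr2 at -0.08 and Fgfr3 at -0.29. Etv4 and Spry1 kept their calls with the 10 libraries alone and without each library in turn, whereas Fgf15 lost its call in 8 of the 10 such fits and Dusp6 in 4. Without FL/FL replicate 4, or FLPlus replicate 2 or 5, 2 of the 20 genes were called. Fgf15 overlaps Gm26793 on the other strand, which was at 1.24 and not called.

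Single genes of other pathways rose as well. Fos, an immediate early factor and part of AP-1, held 15.3 to 30.9 CPM in FL/FL and 5.55 to 9.94 in FLPlus (1.26 ± 0.27, adjusted p = 0.0191). Egln3, an oxygen-sensing hydroxylase, rose by 0.96 ± 0.17 and was the only called gene of 20 in the glycolysis and hypoxia list. Lgr6, a receptor that strengthens Wnt signalling, rose by 1.23 ± 0.22 and was the only one of 15 in the Wnt target list. Traf4, a signalling adaptor, held 112 to 190 CPM in FL/FL and 46.2 to 78.8 in FLPlus (1.39 ± 0.15, adjusted p = 0.0001). Lif, a cytokine of the interleukin 6 family, rose by 2.24 ± 0.40 at low levels of 0.647 to 1.87 CPM in FL/FL. Among genes with high counts, Mtss1l, an organiser of the actin cytoskeleton, held 612 to 895 CPM in FL/FL and 352 to 438 in FLPlus (0.92 ± 0.14), and Kif1c, a motor protein, 142 to 248 and 71.2 to 101 (1.11 ± 0.14). Other large rises were Cd109 (2.05), Prrg4 (2.12), Gcnt4 (1.74), Perm1 (1.55), Ano3 (1.53) and Trim47 (1.49). Of these, Cd109 lost its call in 7 of the 10 fits without a library and with the choroid plexus level as a term (adjusted p = 0.117), Perm1 in 6, Prrg4 in 2 and Trim47 in 1, and Gcnt4 and Ano3 in none. Fos lost its call in 4. Lars2 rose by 0.84 ± 0.17 here and stood at -0.26 and -0.95 in the Shh and Wnt models.

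**Figure D3:**
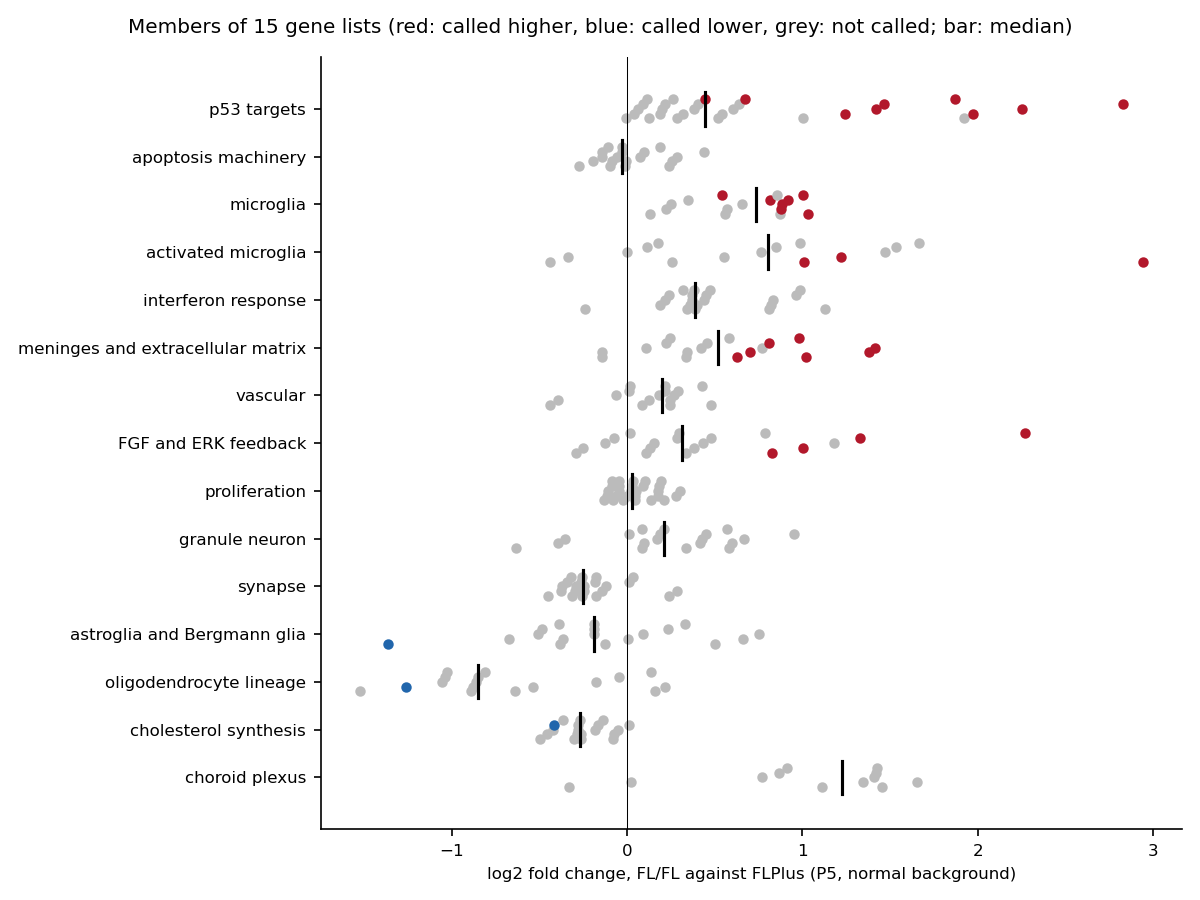
Log2 fold change of each tested member of 15 gene lists, FL/FL against FLPlus at P5 (red called higher, blue called lower, grey not called; black bar, median). Called rises sit in the p53, microglial, matrix and FGF lists, and the oligodendrocyte and cholesterol medians lie below 0 at -0.85 (-0.23 without FLPlus replicate 4) and -0.27.

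Several of the falls were in genes that astrocytes are known to express, named here after their values were seen. Emp2, a membrane protein gene with a high level here (ENSMUSG00000022505, chromosome 16, 10281749 to 10313968), held 36.7, 29, 24.9, 24.2 and 24.8 CPM in FL/FL replicates 1 to 5 and 87.5, 55.2, 58.7, 92.4 and 60.3 in FLPlus. The groups stood well apart (-1.38 ± 0.17, adjusted p = 0.00028). Aqp4, the water channel of astrocyte endfeet, held 131 to 228 CPM in FL/FL and 262 to 678 in FLPlus (-1.37 ± 0.29, adjusted p = 0.0217). Agt, the precursor of angiotensin made by astrocytes, fell from 40.2 ± 19.6 to 9.03 ± 4.51 CPM (-2.18 ± 0.34, adjusted p = 0.00204). Slc25a18, a mitochondrial glutamate carrier, fell by 1.28 ± 0.18 and Ndrg2, an abundant astrocyte gene, by 0.94 ± 0.14. Aldoc, an aldolase of astroglia and of a subset of Purkinje cells, fell by 0.94 ± 0.21, Glud1, glutamate dehydrogenase, by 0.47 ± 0.10, and Aldh1a1, a retinaldehyde dehydrogenase, by 2.47 ± 0.58. Ntsr2, a neurotensin receptor of astrocytes, fell by 1.33 ± 0.29.

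The fixed list of astroglia and Bergmann glia did not move as a whole: Aqp4 was its only called gene of 18, and the median was -0.19, with 7 of 18 fold changes positive. Leaving out a library moved that median between -0.34 and 0.11, positive without FLPlus replicate 1, and the count of called genes between 0 and 2. It was 0 without FL/FL replicate 2, 4 or 5 or FLPlus replicate 4, and 2 without FL/FL replicate 1 or FLPlus replicate 1 or 3. Slc1a2, the glutamate transporter GLT-1, stood at -0.68 (adjusted p = 0.0778), Slc1a3 at -0.19 and Sox9 at 0.01. In the oligodendrocyte list, Gpr17, a receptor of differentiating oligodendrocyte precursors, was the only called gene of 17, at 57.2, 145, 95.6, 132 and 104 CPM in FL/FL and 248, 191, 166, 398 and 216 in FLPlus (-1.26 ± 0.22, adjusted p = 0.00416). Gpr17 overlaps Lims2 on the other strand, at 7.72 CPM and a log2 fold change of -1.04, not called. The list's median was -0.85, and -0.23 without FLPlus replicate 4, where the list summed to 4385 CPM against 1110 to 2471 in the other FLPlus libraries. Its markers of precursors, Pdgfra at -0.05 and Olig2 at 0.14, were near 0. Padi2 and Cmtm5, which are also expressed by oligodendrocytes, fell by 1.24 ± 0.27 and 1.02 ± 0.23 with overlapping groups. Emp2, Slc25a18, Scd1 and Phkg1 kept their calls with the 10 libraries alone. Aqp4 lost its call in 4 of the 10 fits without a library, Aldh1a1 in 6, Ntsr2 in 5, Aldoc and Glud1 in 4, and Agt, Ndrg2 and Gpr17 in none.

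Several fatty acid desaturases and 1 sterol synthesis gene fell. Scd2, a stearoyl-CoA desaturase of the brain, held 1068, 1148, 1095, 1080 and 970.1 CPM in FL/FL and 1844, 1486, 1441, 2263 and 1552 in FLPlus. No FL/FL library reached a FLPlus library (-0.73 ± 0.13, adjusted p = 0.00666). Scd1 held 45.6 to 61 CPM in FL/FL and 87.5 to 198 in FLPlus (-1.25 ± 0.19, adjusted p = 0.00164), and Fads1, a desaturase of long-chain fatty acids, fell by 0.40 ± 0.09. Cyp51, a demethylase of sterol synthesis (chromosome 5, 4081145 to 4104746), held 113 to 125 CPM in FL/FL and 142 to 173 in FLPlus (-0.42 ± 0.08, adjusted p = 0.0131). It was the only called gene of 19 in cholesterol synthesis, and without FL/FL replicate 4 it was 0 and without FLPlus replicate 1 it was 4. Of the 19, 18 had negative fold changes (median -0.27, 9 at an unadjusted p below 0.05). Cyp51 overlaps Akap9 on the other strand, whose fold change was 0.05. Fads1 lost its call in 7 of the 10 fits without a library and with the choroid plexus level as a term (adjusted p = 0.0635). Cyp51 lost it in 1.

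The inhibitory interneuron list had 1 of 15 called, Neurog1, with 5 fold changes positive and a median of -0.33 (-0.56 without FLPlus replicate 1). Pax2, a marker of immature interneurons, was at 0.03. Neurog1, a factor of the ventricular zone from which inhibitory neurons arise, held 0 to 0.0442 CPM in FL/FL and 3.14, 0, 1.69, 0.529 and 0.209 in FLPlus (adjusted p = 0.0344). Because FL/FL libraries were at or next to 0, no fold is given. Nphs1, the adhesion protein nephrin (chromosome 7, 30458315 to 30487223), held 0, 0.133, 1.55, 0.051 and 0.434 CPM in FL/FL and 38.7, 0.189, 18.5, 3.60 and 1.46 in FLPlus (-4.97 ± 1.17, adjusted p = 0.0375). FLPlus replicates 1 and 3, which hold most of that signal, are also the 2 FLPlus libraries highest in proliferation genes. With the proliferation level as a term, chosen after seeing the data, Nphs1 was at -4.81 (adjusted p = 5.54e-06). Neurog1 kept its call in that fit (adjusted p = 2.63e-05). With the replicate number as a block, neither was called (adjusted p = 0.0956 and 0.0811). With the 10 libraries alone Nphs1 was at adjusted p = 0.176, and Neurog1 did not pass the low-count filter. The part of proliferation in these falls was not tested. Ptf1a, which specifies the lineage, and Kirrel2, a binding partner of nephrin, stood at -4.17 and -3.71 and missed the threshold (adjusted p = 0.107 and 0.0519). Both passed it with the proliferation term (0.000197 and 9.05e-05) and missed it with the block (0.217 and 0.134). Lhx5, a homeobox gene of young Purkinje cells and interneurons, fell by 0.97 ± 0.19 (10.2 to 16.7 against 15.7 to 32.1 CPM), and Dll1, a Notch ligand, by 0.61 ± 0.14. Nphs1 lost its call in 6 of the 10 fits without a library, FLPlus replicate 1 or 3 among them, Neurog1 in 7 and Dll1 in 6.

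Several lists of the cerebellar lineage had no called gene. Over all genes tested 1.05% were called higher and 0.258% lower, and lists this short can hold no call at that share. Proliferation genes had 0 of 28 called by edgeR, 0 by DESeq2 and 0 at an unadjusted p below 0.05, with the wide spread between libraries given above. Granule progenitor, granule neuron and Shh target lists likewise had 0 called by either tool of 14, 19 and 14, and 0 at an unadjusted p below 0.05. Synapse genes had 0 of 22 called by either tool and 1 at an unadjusted p below 0.05, although 18 of 22 were negative (median -0.25, and -0.39 to -0.12 without a library). Translation initiation factors, the machinery DDX3X works with, had 0 of 29 called by either tool and 2 at an unadjusted p below 0.05, with a median of 0.00. The other DEAD-box helicases had 0 of 33 called by either tool and 0 at an unadjusted p below 0.05. Heat shock and unfolded protein response genes had 0 of 16 called by edgeR, 1 by DESeq2 and 3 at an unadjusted p below 0.05. The Purkinje list had 2 of 18 called lower by edgeR, Aldoc and Lhx5, both named above. DESeq2 called 2 of the list, and 7 were at an unadjusted p below 0.05. Most of the list went the other way, with 13 of 18 fold changes positive and a median of 0.35. The integrated stress response list had 0 of 20 called by edgeR, 1 by DESeq2 and 6 at an unadjusted p below 0.05. Of 798 genes tested on the X chromosome, 4 rose and none fell.

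The genes were then set beside the other P5 genotypes. FL/FL against WT gave 181 rises (0.955%) and 110 falls (0.58%), and FLPlus against WT none by edgeR, 11 by DESeq2 and 4163 at an unadjusted p below 0.05. These comparisons share libraries with the one above, so their values are set side by side and not used as support. The 200 genes that rose had a median log2 fold change of 0.65 in FL/FL against WT, -0.22 in FLPlus against WT and -0.05 in FLY against WT. For the 49 that fell the medians were -0.69, 0.07 and -0.02. In FL/FL against WT, 97 of the 200 and 33 of the 49 were called. Ccng1 averaged 150 CPM in FL/FL, 52.3 in FLPlus, 53.3 in FLY and 54.7 in WT, and Etv4 85.4, 32.8, 37.2 and 32.9. Col3a1 averaged 370, 177, 221 and 258 CPM, with WT between the 2 female genotypes, and its FL/FL to WT value of 0.57 was not called (adjusted p = 0.117). WT libraries were of both sexes by Xist, which ran from 2.82 to 2380 CPM.

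The same genotypes in the Shh model, a separate set of 10 libraries, gave 251 rises (1.28%) and 61 falls (0.312%) among 19570 genes. Of the 249 genes called in the normal background, 241 had the same sign there (96.8%), against 50.3% of all genes tested in both. That was 193 of 200 rises and 48 of 49 falls, and 100 genes were called in both backgrounds in the same direction and 0 in opposite directions. Tnfrsf10b was at 2.22 in the Shh model, Ccng1 at 1.63, Etv4 at 1.30, Spry1 at 0.80, Emp2 at -1.07 and Scd2 at -0.55, all called there. C1qb at 0.75 (adjusted p = 0.0609), Dcn at 0.77 (0.303) and Cyp51 at -0.26 (0.127) were not. The difference of the effect between the backgrounds was called for 0 genes by edgeR and 2 by DESeq2, with 584 at an unadjusted p below 0.05. One library of the Shh fit, labelled BPtchD-FLY P5 replicate 2, had a female profile. It is not in the contrast, and 387 genes were called without it. Without FLPlus replicate 2, 3 or 4 of that model, 197, 184 and 206 were called.

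In the Wnt model, FL/FL against FLPlus gave 0 calls (0%) by edgeR among 18913 genes, 33 by DESeq2 and 691 at an unadjusted p below 0.05. Of the genes that rose in the normal background, 177 of 200 were positive there at a median of 0.36, and of those that fell, 22 of 49 were negative at a median of 0.04. All genes tested in both had the same sign in 66.6%. Etv4 was at 0.92, Gpnmb at 3.30, Tnfrsf10b at 0.86 and Emp2 at 0.07. The difference between the normal and Wnt effects was called for 12 genes, among them Spry1 (0.79 ± 0.17 larger in the normal background, adjusted p = 0.0362) and Emp2 (-1.44 ± 0.31, adjusted p = 0.0362). With no filter on low counts it was called for 6.

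**Figure D4:**
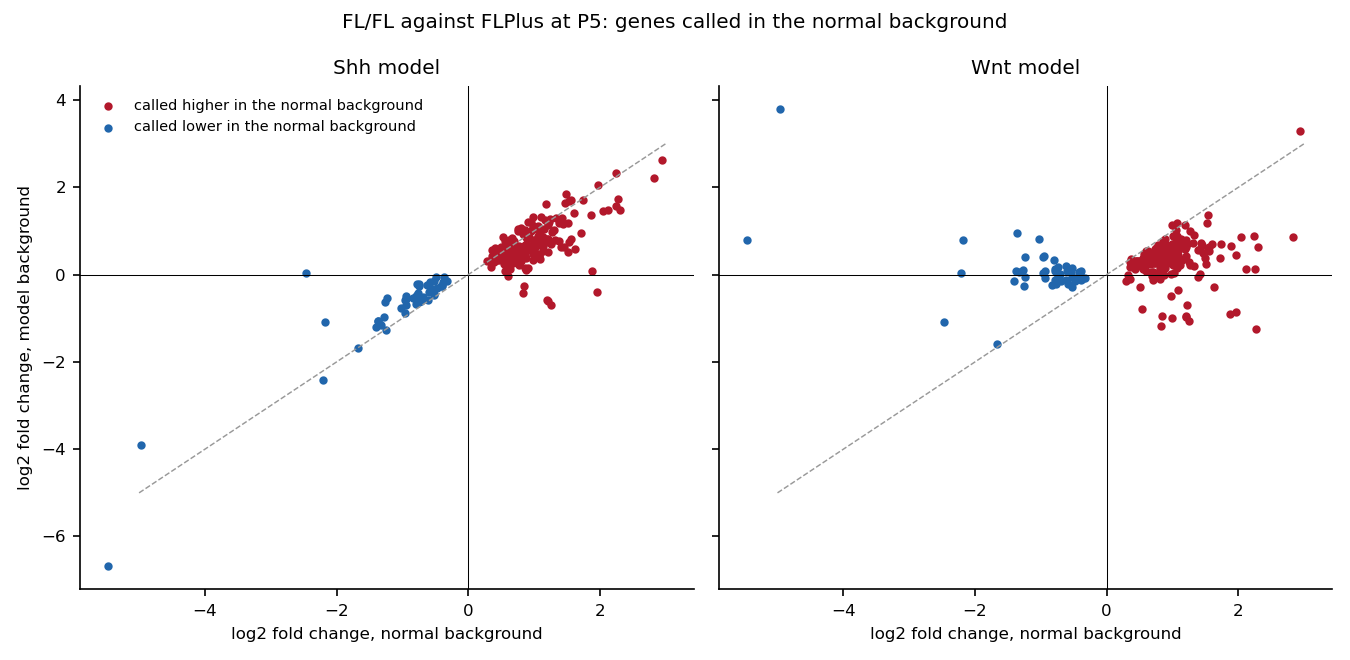
Log2 fold change of FL/FL against FLPlus at P5 for genes called in the normal background (x axis; red higher, blue lower) and the same contrast in the Shh and Wnt models (y axes); the dashed line marks equal values. In the Shh model 241 of 249 genes have the same sign, and in the Wnt model the genes that fell scatter around 0.

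The same contrast was read at 3 other ages. At E16.5 the contrast gave 0 calls (0%) by edgeR among 18552 genes, 1 by DESeq2 and 951 at an unadjusted p below 0.05, and 75 of the 195 tested genes that rose at P5 were positive (38.5%), while 35 of 47 that fell were negative (74.5%), against 55.4% of all genes with the same sign. At P13, with 5 FL/FL and 4 FLPlus libraries, 4 genes were called by edgeR (0.0214% of 18679), all higher, and 179 of 199 of the P5 rises were positive and 36 of 48 of the falls negative, against 49.8% of all genes with the same sign. The 4 were Gpnmb, Cd109, Fcgr2b and Tmem106a. Gpnmb held 12.6 ± 10.8 CPM in FL/FL and 0.69 ± 0.198 in FLPlus at P13 (4.19 ± 0.60, adjusted p = 0.0141), and Cd109, a membrane protein that binds TGF-beta, 27.4 ± 19.9 and 2.11 ± 0.703 (3.76 ± 0.54, adjusted p = 0.0141). Fcgr2b, an inhibitory antibody receptor of phagocytes, rose by 1.63 ± 0.26. DESeq2 called 111 genes at P13. At P30+ there were 0 calls (0%) by edgeR among 17827 genes, 48 by DESeq2 and 1567 at an unadjusted p below 0.05, and 165 of 195 of the P5 rises were positive and 35 of 48 of the falls negative, against 48% of all genes with the same sign.

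Values of some genes called at P5 were read across the ages. Choosing them by their P5 calls favours larger values at that age. From the embryonic to the oldest age, Ccng1 was at -0.31, 1.47, 0.58 and 0.24. Etv4 was at -0.12, 1.33, 0.16 and -0.02, and Emp2 at -0.32, -1.38, -0.43 and -0.14. Cd109 was at 0.04, 2.05, 3.76 and 3.67, and C1qb at -0.25, 1.03, 1.39 and 0.83. Of these genes only Cd109 was called at P13, and none was called at E16.5 or P30+. The ages were fitted apart, so differences between them were not tested.

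**Figure D5:**
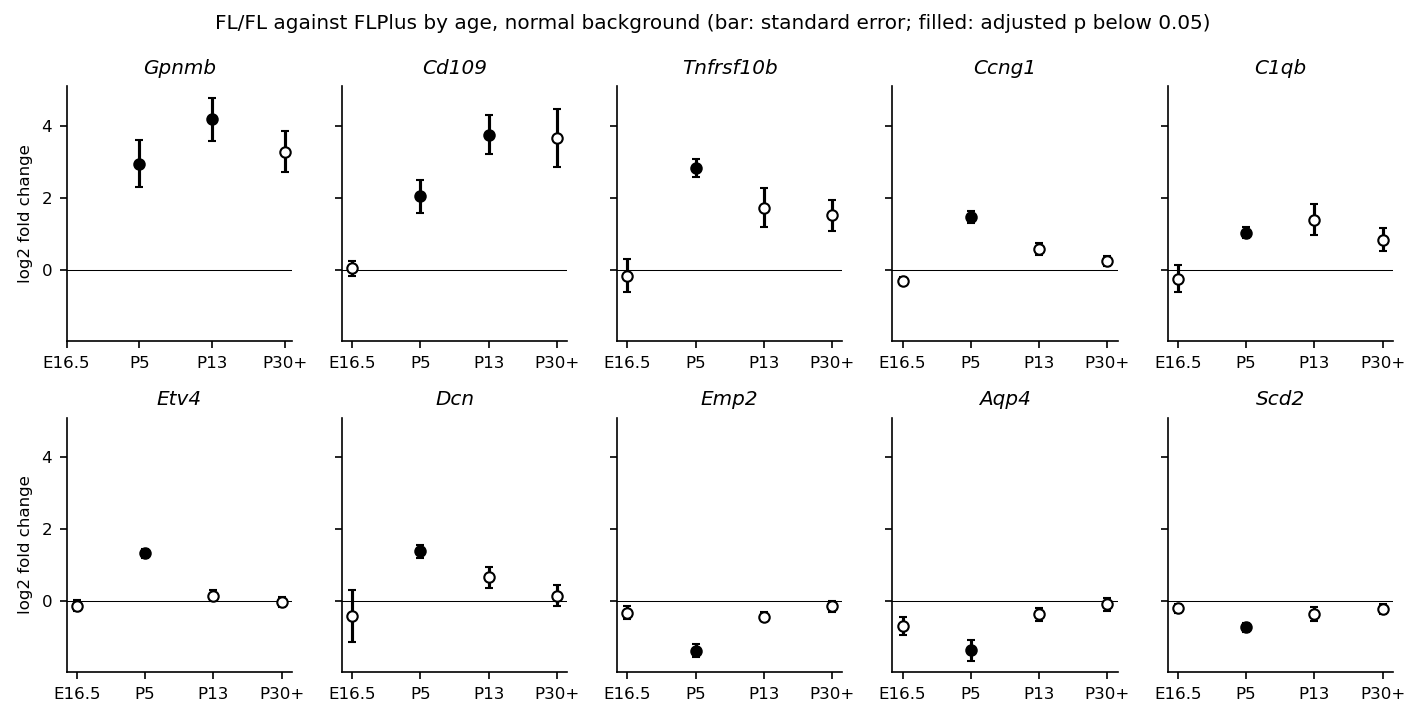
Log2 fold change of FL/FL against FLPlus at 4 ages in the normal background, with its standard error (filled, adjusted p below 0.05; open, not called; Gpnmb was not tested at E16.5). Etv4, Emp2 and Scd2 lie farthest from 0 at P5, and Gpnmb and Cd109 lie above 2 at the 3 postnatal ages. The genes were chosen by their calls at P5, which favours larger values at that age.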

How the data were processed

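RNA-seq of whole cerebella was analysed from the raw counts per gene that the authors deposited (32075 genes, 257 libraries). The submitters' processing notes name HISAT2, featureCounts and GRCm38. Neither versions nor the annotation or strand setting is given in the sources used here, and genes that overlap on opposite strands may share reads. Groups came from genotype and age labels.

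The 4 P5 genotypes of the normal background (20 libraries) were fitted together in edgeR 4.0.16 (R 4.3.3): TMM, filterByExpr (minimum count 10, total 15), quasi-likelihood F-test, two-sided, Benjamini-Hochberg threshold 0.05. The script was tested on simulated data. Called means past that threshold. CPM is per library total. ± is SD for levels and standard error for log2 fold changes. The difference between backgrounds was an interaction in a fit of all 12 P5 groups. DESeq2 1.42.0 was an alternative.

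Members and the 36 gene lists were chosen with earlier results of these data known. The rule named Ddx3x, Ddx3y, Fabp7 and Xist, up to 15 largest rises and falls at a mean log2 CPM of at least 1, up to 4 members per list by adjusted p and up to 10 called genes of high level whose groups do not overlap. Genes named beyond it were chosen after their values were seen. Alternatives were other scaling, filters, covariates, tests and libraries in the fit. Positions are from GENCODE M21. One called list member is not reported here by name.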

Additional observations from a re-analysis of the deposited data

Results flagged for a closer look

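In 164 groups of 5 libraries (82 genes, FL/FL and FLPlus), 8 held a library whose gap to the nearest other passed Dixon's 95% critical value, and chance alone flags about 1 in 20. Ephx1 was low in FL/FL replicate 1 (12.9 CPM against 21.9 to 24.99 in the others) and high in FLPlus replicate 4 (12.7 against 5.3 to 7.16). Csf3r was low in FL/FL replicate 1 (2.40 against 5.05 to 5.92). Phlda3 was low in FLPlus replicate 1 (5.95 against 15.2 to 18.3), Gcnt4 was high in that library (3.92 against 1.375 to 2.09), and Aldoc and Igfbp2 were high in FLPlus replicate 4 (356 against 169 to 218, and 157.5 against 82.5 to 98.3). Nphs1 was highest in FL/FL replicate 3 (1.55 against 0 to 0.434).

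The FL/FL to FLPlus effect differed between the normal and Wnt-model backgrounds by an interaction test for 5 genes named here. Spry1 was 0.79 higher on the log2 scale in the normal background (adjusted p = 0.0362) and Emp2 differed by -1.44 (adjusted p = 0.0362). Nphs1 differed by -8.75 (adjusted p = 0.0149), with -4.97 in the normal and 3.80 in the Wnt background, and Kirrel2 by -7.16 (adjusted p = 0.0148), with -3.71 and 3.47. Ptf1a differed by -12.176 (adjusted p = 0.0159), with -4.17 in the normal background and no value in the Wnt-model fit, where it did not pass the low-count filter. Its levels in FL/FL of the normal background were 0 to 0.324 CPM. The difference had a standard error of 2.36, and how far its size depends on the low counts was not tested.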

How the results depend on the processing

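The count of called genes moved most with the libraries in the fit. DESeq2's Wald test gave 477 genes (345 higher, 132 lower), the 10 FL/FL and FLPlus libraries alone 48 (43 and 5), and the proliferation level as a term 562 (417 and 145). The choroid plexus level as a term gave 79 lower genes. Leaving out each library in turn gave 111 to 381 genes, 96 to 303 higher and 15 to 78 lower, with the ends at FL/FL replicates 4 and 1. The cause of these shifts was not tested. DESeq2 size factors gave 248, no filter on low counts 212, all 12 P5 groups in 1 fit 283, and the run of library titles as a term 276. The proliferation and choroid plexus terms and the joint omission of FL/FL replicate 1 and FLPlus replicate 2 were chosen after seeing the data.

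With a replicate block, 221 genes were called (172 higher, 49 lower). Deviations of same-numbered libraries correlated at -0.748, -0.479, 0.53, 0.299 and 0.051. The labels do not say that libraries of the same number belong together, and a shared litter or day was not tested.

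In the Shh model DESeq2 gave 610 genes, and leaving out each library 184 to 297. In the Wnt model these were 33 and 0 to 3. The normal to Shh difference was called for 2 genes by DESeq2, and the normal to Wnt difference for 33, or 6 with no filter. Of 73 named called genes, 39 kept their call without each library in turn and 22 with the 10 libraries alone. None changed sign.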
